A study of Mus musculus with 8 samples.

Results

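Genes that mark or drive the switch between epithelial and mesenchymal cell states were followed through mouse embryonic stem cells (ESCs) and the testis-like cells made from them. The 10 genes were picked by their known role, with earlier results of these data known: the adhesion genes Cdh1, Epcam and Cdh2, the mesenchymal genes Vim and Fn1, and the transcription factors Snai1, Snai2, Zeb1, Zeb2 and Twist1. All 10 were among the 46078 gene IDs counted in each of 8 RNA-sequencing libraries, in 4 groups of 2. The tcESCs are a male ESC line of the C57BL/6 strain (genotype XY;tesco-cfp) whose CFP reporter is driven by a testis enhancer of Sox9. The tc;Sf1ESCs (XY;tesco-cfp;Sf1) are 1 clone of tcESCs, picked under G418, that overexpresses Sf1 (the gene Nr5a1) from a transgene. With 1 clone, Sf1 and other differences of the clone cannot be told apart between the ESC lines. Both ESC lines were kept in N2B27 medium with LIF, PD0325901 and CHIR99021. The SCLCs, which the labels call testicular somatic cell-like cells and the study Sertoli cell-like cells, carry the same genotype as tc;Sf1ESCs, and were sorted for CFP alone at day 12 of a differentiation culture whose main factors were CHIR99021, BMP7 and FGF9. The todPGCLCs (primordial germ cell-like cells) came from another C57BL/6 line with a gfp reporter in Prdm1 (XY;Prdm1-gfp). They were sorted at day 6 from organoids in which ESC-derived epiblast-like cells grew together with ESC-derived testicular cells in medium with CHIR99021. No sort is stated for the ESCs, so sorting and cell state cannot be told apart between ESCs and either sorted group. The ESCs of the Prdm1-gfp line were not analysed here, so the todPGCLCs are compared with tcESCs as a reference of another line, and line and cell state cannot be told apart in that comparison. SCLCs and todPGCLCs differ in line, Sf1 transgene, sort, culture and day, which cannot be told apart from cell state either.

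An epithelial cell is held to its neighbours by E-cadherin, the product of Cdh1, and by EpCAM, the product of Epcam. In an epithelial to mesenchymal transition, transcription factors of the Snail, Zeb and Twist families repress Cdh1 through E-box sequences, and cells gain N-cadherin (Cdh2), the intermediate filament vimentin (Vim) and fibronectin (Fn1). Naive ESCs are epithelial and rich in Cdh1, gastrulating cells pass through the transition, and Sertoli cells of the testis form an epithelium again around the germ cells. The members therefore fall into junction genes, filament and matrix genes, and the repressors that act on them.

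The E-box bound by Snail and Zeb proteins is CACCTG, or CAGGTG on the other strand, and each is the reverse complement of the other. Promoter windows from 250 bases before to 50 after a start site, taken from RefSeq on GRCm38.p6, covered 5 of the 10 members (Epcam, Vim, Snai1, Zeb2 and Twist1), and Cdh1, Cdh2, Fn1, Snai2 and Zeb1 were not searched. The Epcam and Snai1 windows held the E-box, where 22.6% of the 27025 genes with a window did. They are shown because these members hold the E-box, beside that of Vim, which held none and had the largest decrease of any member between tc;Sf1ESCs and SCLCs. Epcam is at chr17:87635729-87636028, Snai1 at chr2:167537945-167538244 and Vim at chr2:13574061-13574360, all on the + strand, and capitals mark the E-box.
Epcam: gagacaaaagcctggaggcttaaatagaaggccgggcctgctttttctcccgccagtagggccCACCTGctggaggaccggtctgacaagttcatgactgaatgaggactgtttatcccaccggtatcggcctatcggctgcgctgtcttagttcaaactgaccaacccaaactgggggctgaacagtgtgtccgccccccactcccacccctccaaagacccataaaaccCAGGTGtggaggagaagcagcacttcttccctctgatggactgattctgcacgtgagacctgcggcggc
Snai1: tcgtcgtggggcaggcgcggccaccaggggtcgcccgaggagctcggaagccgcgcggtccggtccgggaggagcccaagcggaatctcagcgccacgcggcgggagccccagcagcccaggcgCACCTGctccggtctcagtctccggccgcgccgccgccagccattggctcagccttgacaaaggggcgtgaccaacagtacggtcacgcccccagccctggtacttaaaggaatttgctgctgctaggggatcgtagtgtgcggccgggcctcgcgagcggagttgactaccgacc
Vim: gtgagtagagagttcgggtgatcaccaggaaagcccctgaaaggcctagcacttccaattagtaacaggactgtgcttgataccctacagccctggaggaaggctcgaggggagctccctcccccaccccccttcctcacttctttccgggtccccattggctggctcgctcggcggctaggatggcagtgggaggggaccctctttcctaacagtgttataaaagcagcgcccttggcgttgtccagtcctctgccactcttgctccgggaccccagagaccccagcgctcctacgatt
The Epcam window had E-boxes starting at -187 and -19 from the start site, and the Snai1 window had 1 at -126. These matches describe the letters of the window, and binding was not measured.

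Library totals ran from 25411033 to 30680191 counts on genes, at which 3 counts equal 0.0978 to 0.118 CPM (counts scaled to each library's total). Nr5a1, which the transgene encodes, was counted at 1 and 0 reads in tcESCs and at 2.01 and 1.08 CPM in the Sf1 clone, and these counts do not separate the transgene from the endogenous gene. The series text calls the duplicates biological without naming their source, and p-values measure the spread between these libraries only. The SCLC pair differed most, with a chi-square of 27.6 per degree of freedom over genes, against 1.41 to 8.94 in the other pairs. Of a 13-gene Sertoli list, 9 were tested between SCLCs and tc;Sf1ESCs. Of these, 7 were called higher and 0 lower, where 24.1% and 18.1% of all genes tested were. Against tcESCs 6 were called higher and 0 lower (24.3% and 18.3% of all genes). Of the 7 called higher against tc;Sf1ESCs, Sox9, Inha and Cldn11 passed the count filter only through the SCLC libraries and so had to differ. The enhancer behind the CFP sort is that of Sox9. Nr5a1, also called, had 12.87 and 18.39 CPM in SCLCs, and transgene and endogenous reads cannot be told apart there either. Sox9 stood at 7.77 and 4.47 CPM in SCLCs and at no more than 0.27 CPM in the ESC lines, and Inha at 7.92 and 9.28 CPM against no more than 0.386 CPM. The list summed to 491.1 and 481.9 CPM in SCLCs, with Gata4 at 415.5 and 431.4 CPM. Its other 12 genes summed to 75.6 and 50.5 CPM in SCLCs, 11.6 to 25.1 CPM in the ESC lines, and 162.8 and 179.1 CPM in todPGCLCs. Dmrt1 alone gave 99.75 and 122.1 CPM of this in todPGCLCs and 35.66 and 13.3 CPM in SCLCs. Aard gave 45.35 and 37.76 CPM in todPGCLCs and 5.811 and 1.65 CPM in SCLCs. On the same list, Amh stood at 0.377 and 0.756 CPM in SCLCs and Dhh at 0.189 and 0.0344 CPM. Fshr had 0 counts in both SCLC libraries. Wt1 stood at 2.264 and 0.791 CPM in SCLCs, 0.347 to 0.619 CPM in the ESC lines, and 12.06 and 11.03 CPM in todPGCLCs. Parietal endoderm markers (10 of 10 called higher than in tc;Sf1ESCs, 1 of them tested only through its SCLC counts) summed to 46560 and 46220 CPM in SCLCs and to 588.1 to 863.3 CPM elsewhere. Of these SCLC sums, Col4a1 gave 19180 and 18780 CPM, Col4a2 9586 and 9233 CPM, and Lama1, Lamb1 and Sparc at least 4758 CPM each. Gata6, Plat, Sox7, Stra6 and Thbd gave at most 188.6 CPM each. Visceral endoderm markers (13 of 14 called, 4 of them tested only in that way) summed to 2867 and 4866 CPM, against 17.74 to 56.85 CPM, and stromal mesenchyme markers (10 of 10, 5 of them tested only in that way) to 1198 and 1090 CPM, against 7.516 to 66.23 CPM. Pdgfra, which primitive endoderm also expresses, gave 735.5 and 871.8 CPM of the stromal sums in SCLCs. Beside these endoderm and stromal calls, 24.1% of all genes were called higher than in tc;Sf1ESCs. With endoderm and stromal markers higher as well, SCLC is used here as the name of the sorted fraction. In todPGCLCs a germ cell list of 9 genes summed to 1098 and 1097 CPM, against 415.5 to 574.2 CPM in the other groups. Against tcESCs 5 of 9 were called higher and 0 lower, where 18.1% and 11.2% of all genes were. Prdm1, on that list, drives the reporter used for the sort. The part of these other cell types in the results below was not tested. In bulk RNA, fewer cells of a type and less RNA per cell cannot be told apart.

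**Figure D1:**
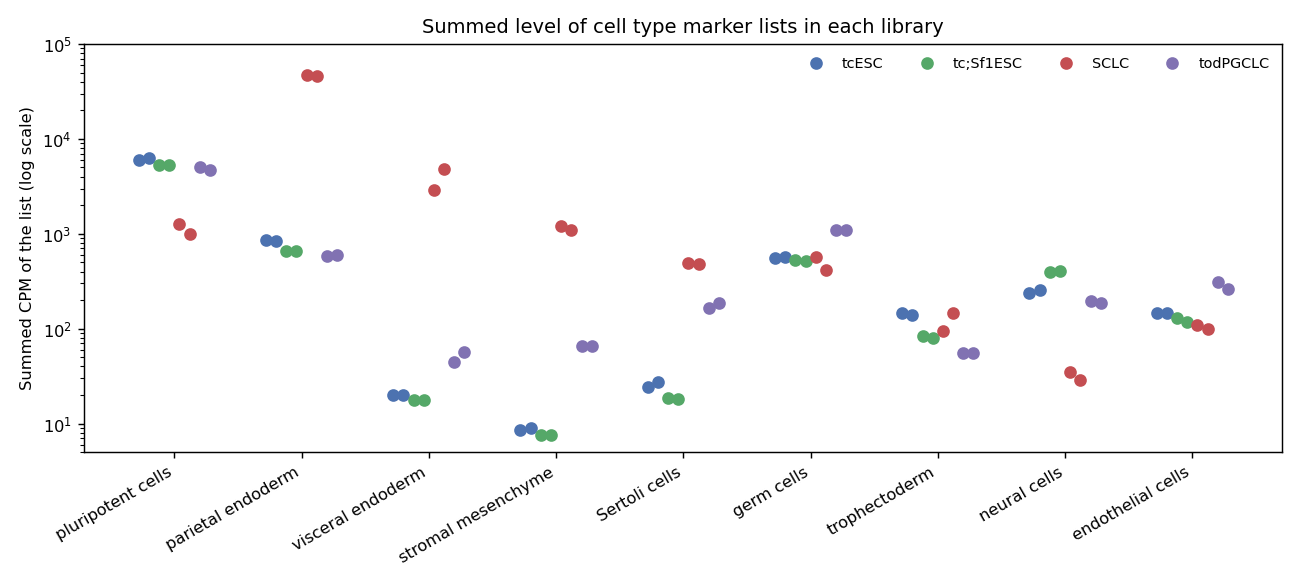
Summed CPM of each cell type marker list (log axis) in each of the 8 libraries, coloured by group. The SCLC libraries stand above all others for parietal endoderm (46560 and 46220 CPM), visceral endoderm and stromal mesenchyme, and below all others for pluripotent cells (1265 and 986.7 CPM).

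Levels can be compared between genes only per length, as TPM (counts per kilobase of merged exons, scaled to the same sum in each library). In tcESCs the members spanned from Fn1, at 794.7 ± 54.8 TPM (SD, n = 2), and Cdh1, at 709.4 ± 28.3 TPM, down to Zeb2 at 0.0927 ± 0.0377 TPM. The ranges of Fn1 and Cdh1 did not overlap in tcESCs, while those of Epcam (110.7 ± 2.56 TPM) and Vim (110.4 ± 2.97 TPM) did. Both ESC lines thus held a high level of the epithelial Cdh1 together with a high level of the matrix gene Fn1. In SCLCs the order changed: Cdh1 (354.5 ± 101 TPM) and Epcam (286.8 ± 72.2 TPM) led with overlapping ranges, and Fn1 (162.0 ± 23.9 TPM) and Snai1 (148.2 ± 39.5 TPM) followed, also overlapping. In todPGCLCs Fn1 led at 491.7 ± 7.61 TPM, above Epcam at 294.4 ± 2.07 TPM and Cdh1 at 276.7 ± 5.06 TPM. Zeb2 was the lowest of the 10 in every group, and did not exceed 1.02 TPM in any library.

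**Figure D2:**
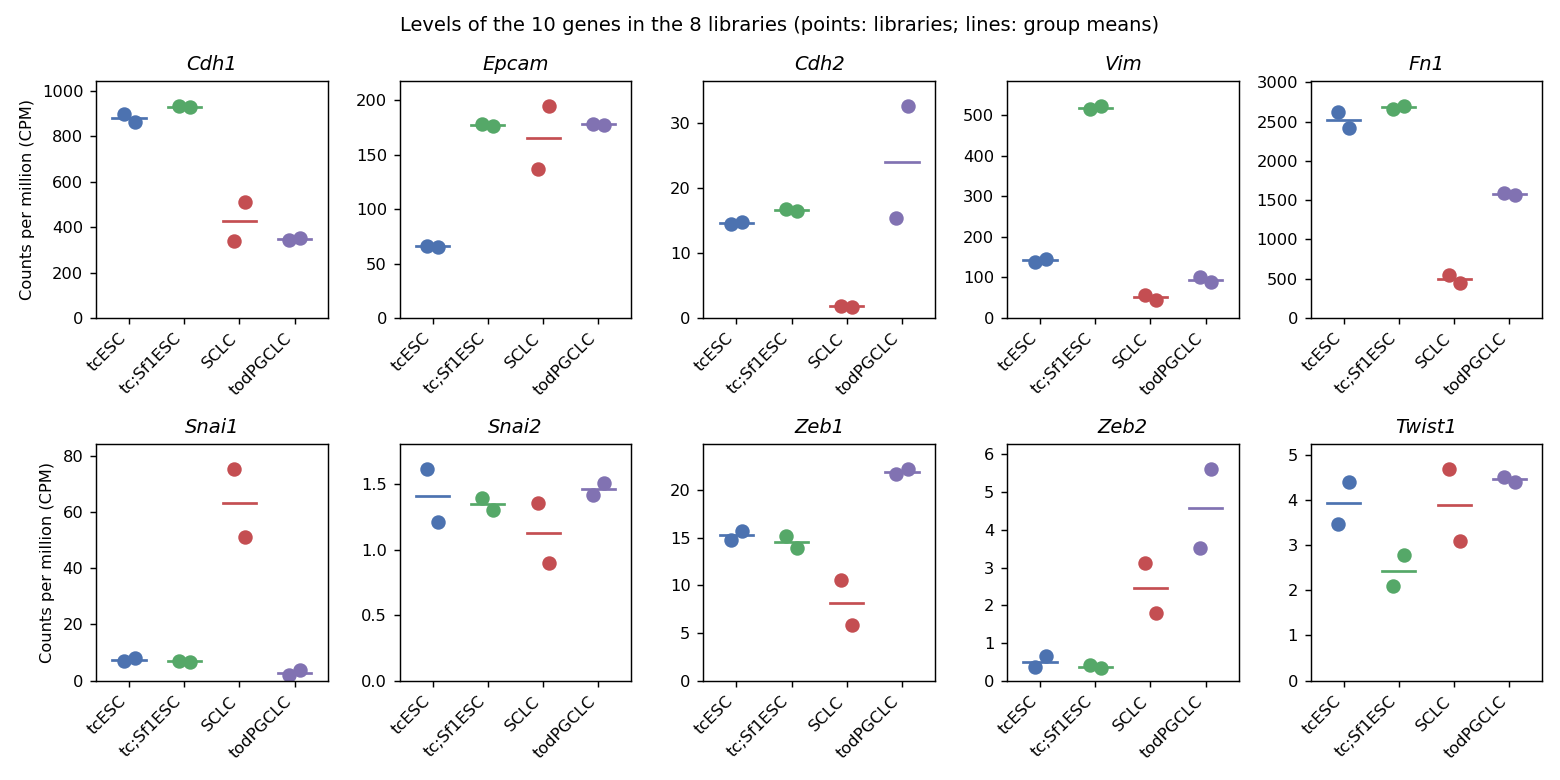
CPM of each gene (linear axes from 0) in the 2 libraries of each group, with the group mean as a line. Vim stands high in tc;Sf1ESCs alone, Snai1 in SCLCs alone, and Cdh2 falls to 1.81 and 1.72 CPM in SCLCs.

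A gene was called between groups when it differed by more than 2-fold with an adjusted p under 0.05 from edgeR's quasi-likelihood test across all genes. All 10 members passed the filter of a mean count above 10, none of them through 1 group alone, and the fold changes below are log2 values with their standard errors (SE). Between tc;Sf1ESCs and tcESCs, 2 members were called higher (Epcam and Vim), where 6.04% of all 16481 genes tested were, and 0 were called lower, where 5.63% of all genes were. Between SCLCs and tcESCs, 3 members were called higher (Epcam, Snai1 and Zeb2; 24.3% of all genes) and 3 lower (Cdh2, Vim and Fn1; 18.3% of all genes). Between SCLCs and tc;Sf1ESCs, the pair that shares a genotype, 2 were called higher (Snai1 and Zeb2; 24.1% of all genes) and 4 lower (Cdh1, Cdh2, Vim and Fn1; 18.1% of all genes). These comparisons share the SCLC libraries and are not independent. Between todPGCLCs and tcESCs, 2 were called higher (Epcam and Zeb2; 18.1% of all 16707 genes tested) and 2 lower (Cdh1 and Snai1; 11.2% of all genes). Between SCLCs and todPGCLCs, 1 was called higher (Snai1; 19.5% of all genes) and 3 lower (Cdh2, Fn1 and Zeb1; 18.5% of all genes). With 10 members, each of these counts is small, and members moved in both directions in each comparison that has SCLCs or todPGCLCs. The median log2 fold change of the members was 0.02, -0.55, -0.50, 0.05 and -0.51 in the order given, against medians between -0.01 and 0.05 over all genes.

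**Figure D3:**
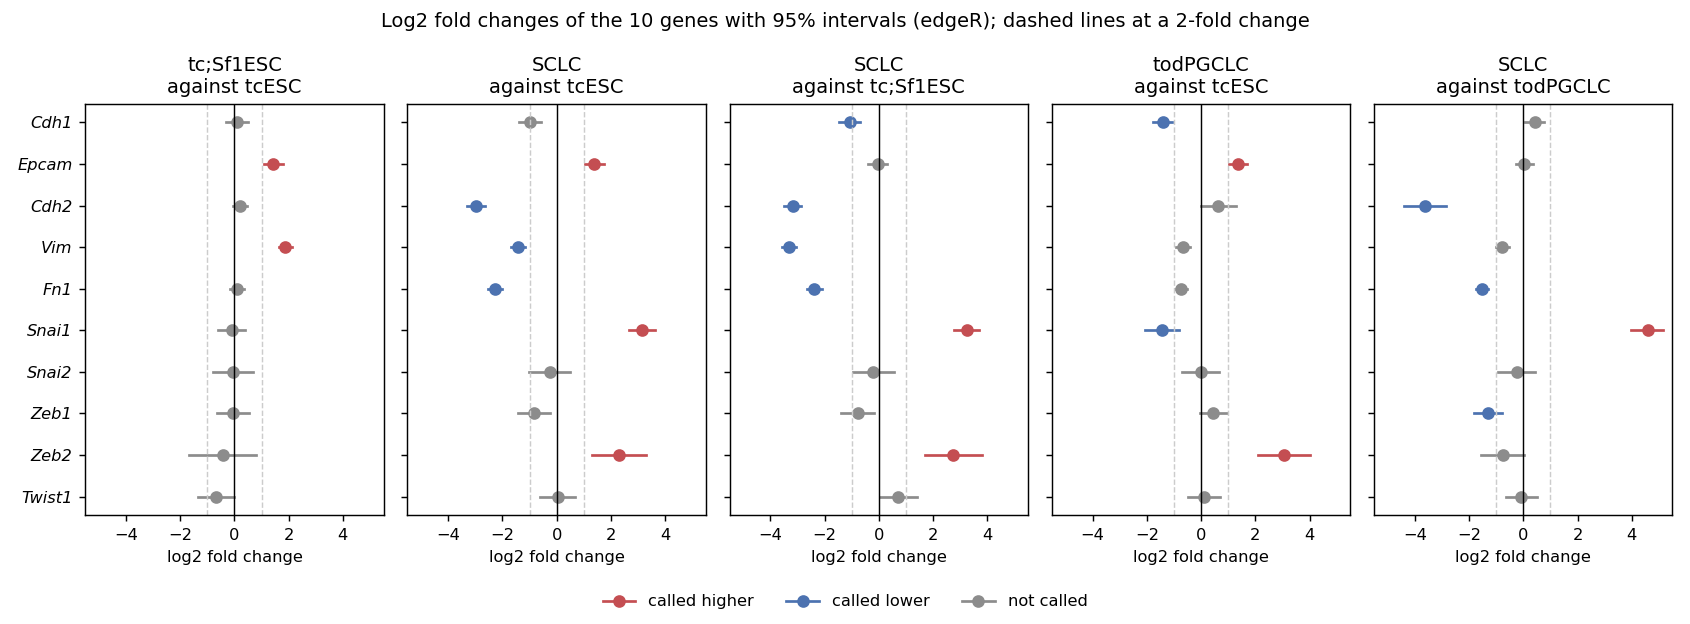
Log2 fold change of each member (points) with its 95% interval (lines) from edgeR in the 5 comparisons, coloured by call, with dashed lines at a 2-fold change. In the 3 comparisons of SCLCs, Cdh2 (-2.98, -3.18 and -3.63) and Snai1 (3.15, 3.25 and 4.58) lie on opposite sides of 0.

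Cdh1 encodes E-cadherin, the adhesion molecule of epithelial junctions and of ESC colonies. It lies on chromosome 8 (106603351 to 106670246, + strand, GRCm38). It had 897.4 and 863.5 CPM in tcESCs, 932.5 and 930.5 CPM in tc;Sf1ESCs, 341.3 and 510.7 CPM in SCLCs and 342.6 and 353.5 CPM in todPGCLCs. Both ESC lines were high and both differentiated groups low, with no overlap between them. Against tc;Sf1ESCs Cdh1 fell by 1.08 in SCLCs (SE 0.17, adjusted p = 0.000841), and against tcESCs it fell by 1.41 in todPGCLCs (SE 0.16, adjusted p = 8.06e-05). The difference between SCLCs and tcESCs was -0.98 (SE 0.17, adjusted p = 0.00135), which is 1.98-fold and just under the fold limit. These values lean on the SCLC library used: without SCLC replicate 1 the difference from tc;Sf1ESCs was -0.80 and no longer called, and without SCLC replicate 2 that from tcESCs was -1.31 and called, as it was without tcESC replicate 2 (-1.03). SCLCs and todPGCLCs did not differ by a call (0.43, 95% interval 0.07 to 0.78, adjusted p = 0.0345), and their libraries overlapped. The 864 tested genes of chromosome 8 had a median log2 fold change of 0.47 between tc;Sf1ESCs and tcESCs and 0.58 between SCLCs and tcESCs, against 0.04 between SCLCs and tc;Sf1ESCs. Cdh1 itself changed by 0.09 (SE 0.17, adjusted p = 0.706) between the ESC lines, and the part of this chromosome-wide difference was not tested. Between SCLCs and todPGCLCs the median of 870 tested genes of the chromosome was 0.54, and its part in the difference of Cdh1 was not tested there either.

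Cdh2 encodes N-cadherin, which replaces E-cadherin in many mesenchymal and neural cells. It lies on chromosome 18 (16588877 to 16809246, - strand). Its level was 14.5 and 14.7 CPM in tcESCs, 16.8 and 16.4 CPM in tc;Sf1ESCs, 1.81 and 1.72 CPM in SCLCs, and 15.4 and 32.6 CPM in todPGCLCs. SCLCs were the lowest group by a wide margin, at 48 and 50 counts, and the todPGCLC libraries differed from each other more than any other pair. Cdh2 was 7.91-fold lower in SCLCs than in tcESCs (log2 fold change -2.98, SE 0.14, adjusted p = 2.1e-06) and 9.08-fold lower than in tc;Sf1ESCs (-3.18, SE 0.14, adjusted p = 1.61e-06). Against todPGCLCs it was lower by 12.4-fold (log2 fold change -3.63, SE 0.34, adjusted p = 2.02e-05), and the log2 value was -2.998 without todPGCLC replicate 2. The todPGCLCs did not differ from tcESCs by a call (0.64, SE 0.28, adjusted p = 0.0766). That result rests on 1 library, since it was 1.09 and called without todPGCLC replicate 1, and 0.01 without todPGCLC replicate 2.

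The ratio of Cdh1 to Cdh2 per kilobase of exon puts the cadherin pair on a single scale. It was 109 and 103 in tcESCs, 97.7 and 99.7 in tc;Sf1ESCs, 329 and 519 in SCLCs, and 39.2 and 19.1 in todPGCLCs. E-cadherin transcripts thus exceeded N-cadherin transcripts in all 8 libraries. The ratio was highest in SCLCs, where both genes had lower CPM than in every ESC library and Cdh2 by the larger fold, and lowest in todPGCLCs. With 2 libraries against 2, the smallest p an exact two-sided permutation test allows is 0.333, and no test was made.

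**Figure D4:**
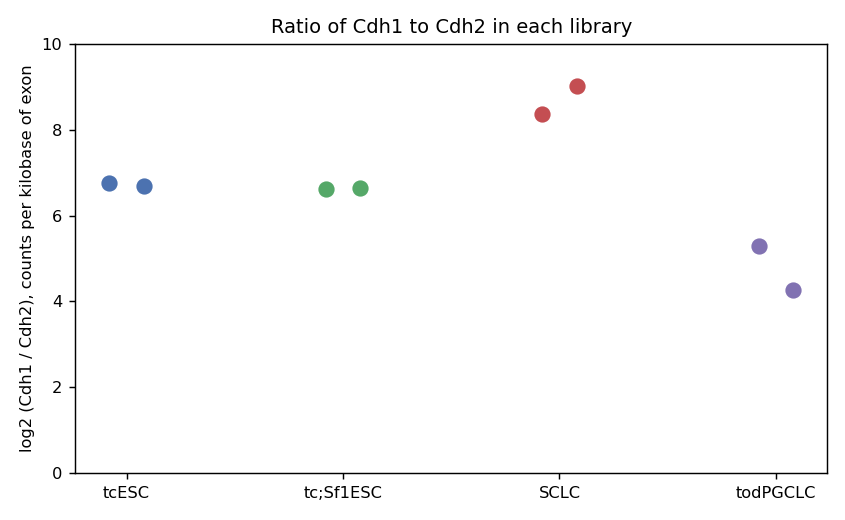
Log2 ratio of Cdh1 to Cdh2 in counts per kilobase of exon (linear axis) in the 2 libraries of each group. The 4 ESC libraries lie between 6.61 and 6.77, the SCLC libraries at 8.36 and 9.02, and the todPGCLC libraries at 5.29 and 4.26.

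Epcam encodes an epithelial adhesion protein that is also present on ESCs and germ cells. It lies on chromosome 17 (87635979 to 87651129, + strand), and its promoter window is shown above. It had 66.4 and 65.5 CPM in tcESCs, 178.0 and 176.2 CPM in tc;Sf1ESCs, 136.5 and 194.3 CPM in SCLCs, and 178.1 and 177.3 CPM in todPGCLCs. The tcESCs were the low group, and the other 3 groups overlapped or lay close together. Epcam rose by 1.44 in tc;Sf1ESCs (SE 0.15, adjusted p = 0.000717), by 1.39 in SCLCs (SE 0.15, adjusted p = 0.000131) and by 1.36 in todPGCLCs (SE 0.14, adjusted p = 5.5e-05), each against the same tcESC libraries. SCLCs differed from tc;Sf1ESCs by -0.05 (95% interval -0.40 to 0.30) and from todPGCLCs by 0.03 (95% interval -0.28 to 0.34). Epcam was thus called higher than in tcESCs both in the Sf1 clone and in the SCLCs made from it, while Cdh1 was not called between the ESC lines.

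Vim encodes vimentin, the intermediate filament of mesenchymal cells. It lies on chromosome 2 (13573927 to 13582826, + strand). Vim had 138 and 146 CPM in tcESCs, 515 and 522 CPM in tc;Sf1ESCs, 56.1 and 45.03 CPM in SCLCs, and 101 and 87.6 CPM in todPGCLCs. The 4 groups did not overlap, and the order from high to low was tc;Sf1ESCs, tcESCs, todPGCLCs and SCLCs. The Sf1 clone had 3.68-fold more than its parent line (log2 fold change 1.88, SE 0.10, adjusted p = 6.92e-05). From that clone to SCLCs it fell by 3.31 (SE 0.11, adjusted p = 5.92e-07), a 9.91-fold difference and the largest decrease of any member in that comparison. SCLCs were also below tcESCs (-1.43, SE 0.10, adjusted p = 1.63e-05). The todPGCLCs lay below tcESCs and above SCLCs by less than 2-fold (-0.66, adjusted p = 0.000676, and -0.77 for SCLCs against todPGCLCs, adjusted p = 0.000231).

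Fn1 encodes fibronectin, a matrix protein that mesenchymal cells and early embryonic tissues deposit. It lies on chromosome 1 (71585520 to 71653200, - strand). Its level was 2620 and 2419 CPM in tcESCs, 2665 and 2692 CPM in tc;Sf1ESCs, 552 and 444 CPM in SCLCs, and 1593 and 1567 CPM in todPGCLCs. The ESC lines were high and differed by 0.10 (95% interval -0.15 to 0.35), todPGCLCs were intermediate and SCLCs lowest. In SCLCs Fn1 was 4.84-fold lower than in tcESCs (log2 fold change -2.28, SE 0.11, adjusted p = 2.76e-06), 5.20-fold lower than in tc;Sf1ESCs (-2.38, SE 0.11, adjusted p = 2.28e-06) and 2.89-fold lower than in todPGCLCs (-1.53, SE 0.10, adjusted p = 2.31e-06). The todPGCLCs were below tcESCs by less than 2-fold (-0.75, SE 0.10, adjusted p = 0.000225). Vim, Fn1 and Cdh2, the mesenchymal members, were thus all called lower in SCLCs than in either ESC line.

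Snai1 encodes Snail, a zinc finger repressor that binds the E-box. It lies on chromosome 2 (167538195 to 167542814, + strand), and its own promoter window, shown above, held 1 E-box. Snai1 had 7.005 and 7.89 CPM in tcESCs, 6.98 and 6.79 CPM in tc;Sf1ESCs, 75.3 and 51.1 CPM in SCLCs, and 2.14 and 3.65 CPM in todPGCLCs. SCLCs were the high group and todPGCLCs the low group, with no overlap with the ESC lines. It was 8.84-fold higher in SCLCs than in tcESCs (log2 fold change 3.15, SE 0.20, adjusted p = 7.77e-06) and 9.50-fold higher than in tc;Sf1ESCs (3.25, SE 0.20, adjusted p = 7.13e-06). Against todPGCLCs it was 23.9-fold higher (4.58, SE 0.26, adjusted p = 1.06e-06), the largest change of any member in any of the 5 comparisons. In todPGCLCs it fell by 1.44 against tcESCs (SE 0.27, adjusted p = 0.00153). In SCLCs Snai1 was higher than in tc;Sf1ESCs, and Cdh1, Cdh2, Vim and Fn1 were lower. In todPGCLCs Snai1 and Cdh1 were both lower than in tcESCs (-1.44 and -1.41). A link between Snai1 and Cdh1 was not tested.

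Snai2 encodes Slug, the close relative of Snail, and lies on chromosome 16 (14705852 to 14709385, + strand). It was low in every library, with 26 to 41 counts, which is 0.894 to 1.61 CPM. Its differences ran from -0.26 (95% interval -1.01 to 0.49) for SCLCs against tcESCs to -0.01 (95% interval -0.69 to 0.66) for todPGCLCs against tcESCs, and none was called. The 3 intervals for SCLCs together reached from -1.01 to 0.54. The 502 tested genes of chromosome 16 had a median of -0.46 between tc;Sf1ESCs and tcESCs and -0.52 between SCLCs and tcESCs, and 508 genes a median of -0.53 between SCLCs and todPGCLCs, and the part of this difference in the values of Snai2 was not tested. The Snail paralogs thus differed in level, Snai1 at 148.2 ± 39.5 TPM and Snai2 at 2.12 ± 0.608 TPM in SCLCs.

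Zeb1 encodes a zinc finger and homeodomain repressor of Cdh1, and lies on chromosome 18 (5591860 to 5775467, + strand). Its level was 14.8 and 15.7 CPM in tcESCs, 15.2 and 13.9 CPM in tc;Sf1ESCs, 10.5 and 5.81 CPM in SCLCs, and 21.6 and 22.2 CPM in todPGCLCs. SCLCs were lowest and todPGCLCs highest without overlap, and the SCLC libraries differed from each other. Zeb1 was lower in SCLCs than in todPGCLCs (-1.30, SE 0.23, adjusted p = 0.00085), a call lost without SCLC replicate 2 (-0.92). Its differences of -0.84 from tcESCs (adjusted p = 0.0184) and -0.79 from tc;Sf1ESCs (adjusted p = 0.0243) were under 2-fold. Without SCLC replicate 1 they were -1.31 and -1.26 and both were called.

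Zeb2, a paralog of Zeb1 on chromosome 2 (44983632 to 45117395, - strand), had 9 and 20 counts in tcESCs, 11 and 9 in tc;Sf1ESCs, 83 and 52 in SCLCs, and 97 and 149 in todPGCLCs. In CPM these are 0.354 and 0.652, 0.424 and 0.325, 3.13 and 1.79, and 3.52 and 5.61. Both differentiated groups lay above both ESC lines in every library. Zeb2 was 4.97-fold higher in SCLCs than in tcESCs (log2 fold change 2.31, SE 0.42, adjusted p = 0.00184), 6.72-fold higher than in tc;Sf1ESCs (2.75, SE 0.45, adjusted p = 0.00101), and 8.40-fold higher in todPGCLCs than in tcESCs (3.07, SE 0.42, adjusted p = 0.000279). SCLCs and todPGCLCs did not differ by a call (-0.76, SE 0.35, adjusted p = 0.0806), though they did without SCLC replicate 1 (-1.21) or without todPGCLC replicate 1 (-1.07). Against both ESC lines, Zeb2 was thus called higher in SCLCs while Zeb1 was not called.

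Twist1 encodes a basic helix-loop-helix factor of mesoderm and neural crest, and lies on chromosome 12 (33957671 to 33959829, + strand). It had 3.46 and 4.40 CPM in tcESCs, 2.08 and 2.78 CPM in tc;Sf1ESCs, 4.68 and 3.09 CPM in SCLCs, and 4.503 and 4.41 CPM in todPGCLCs. The tc;Sf1ESCs were the lowest group, but Twist1 was called in 0 of the 5 comparisons. Its largest differences were 0.72 between SCLCs and tc;Sf1ESCs (95% interval 0.05 to 1.39, adjusted p = 0.053) and -0.68 between tc;Sf1ESCs and tcESCs (95% interval -1.35 to -0.01, adjusted p = 0.11).

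A wider list of 40 epithelial genes, which holds Cdh1 and Epcam, was tested in full. Between tc;Sf1ESCs and tcESCs 4 were called higher and 8 lower (median log2 fold change -0.33), where 6.04% and 5.63% of all genes were. In SCLCs 22 were higher and 3 lower against tcESCs (median 1.20), where 24.3% and 18.3% of all genes were, and 23 higher and 2 lower against tc;Sf1ESCs (median 1.31), where 24.1% and 18.1% were. Ovol1, called higher in both, passed the count filter only through the SCLC libraries. Against todPGCLCs 19 were higher and 3 lower in SCLCs (median 0.99; 19.5% and 18.5% of all genes). In todPGCLCs 16 were higher and 6 lower against tcESCs (median 0.57; 18.1% and 11.2% of all genes). Krt18, a keratin of simple epithelia, had 22.4 and 30.5 CPM in tcESCs, 0.887 and 0.759 CPM in tc;Sf1ESCs, 374 and 466.5 CPM in SCLCs and 87.8 and 89.9 CPM in todPGCLCs. It fell by 4.99 in the Sf1 clone (SE 0.26, adjusted p = 6.04e-05) and was higher by 9.04 in SCLCs than in that clone (SE 0.25, adjusted p = 2.94e-07). Cldn6, a tight junction claudin of embryonic epithelia, rose from 13.9 and 14.6 CPM in tcESCs to 297.5 and 347 CPM in SCLCs (log2 fold change 4.56, SE 0.11). Esrp1, an epithelial splicing regulator, rose from 5.82 and 5.70 CPM in tcESCs to 118.5 and 144 CPM in todPGCLCs (4.44, SE 0.14). Spint1, an inhibitor of epithelial serine proteases, fell from 184.6 and 196.5 CPM in tcESCs to 52.0 and 87.1 CPM in SCLCs (-1.39, SE 0.21, adjusted p = 0.000689). Cldn4, a claudin like Cldn6, also fell, from 140.5 and 154.8 CPM to 46.6 and 66.8 CPM in the same comparison (-1.31, SE 0.15, adjusted p = 0.000193). The claudins named thus moved in both directions, and Krt18 was called higher in SCLCs where Cdh1 was not.

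Of 32 mesenchymal genes, which include Cdh2, Vim and Fn1, 31 were tested. Between the ESC lines 2 were called higher and 2 lower in tc;Sf1ESCs (median -0.03), close to the 6.04% and 5.63% of all genes. In SCLCs 20 were higher and 6 lower against tcESCs (median 1.96), where 24.3% and 18.3% of all genes were, and 23 higher and 5 lower against tc;Sf1ESCs (median 2.65), where 24.1% and 18.1% were. Acta2, Cdh11, Col3a1, Lox and Postn passed the count filter only through the SCLC libraries and so had to differ, and of the other 26 genes 15 were called higher against tcESCs and 18 against tc;Sf1ESCs. The counts called lower are near the shares of all genes. Against todPGCLCs 16 were higher and 3 lower in SCLCs (median 1.02, with 19.5% and 18.5% of all genes). Lox passed the filter only through SCLCs there too, which leaves 15 of 30 called higher. The todPGCLCs had 14 higher and 4 lower against tcESCs (median 0.74, with 18.1% and 11.2% of all genes). Pdgfra, a growth factor receptor of mesenchyme and of primitive endoderm, had 735.5 and 871.8 CPM in SCLCs and 1.66 to 3.58 CPM in the other 6 libraries (log2 fold change 8.06 against tc;Sf1ESCs, SE 0.17, adjusted p = 1.14e-07). Col3a1, a fibrillar collagen, had at most 3 counts in each ESC library and 143.9 and 77.8 CPM in SCLCs. Msn, which encodes the membrane linker moesin, went the other way, from 256 and 257 CPM in tcESCs to 49.96 and 39.4 CPM in SCLCs (-2.46, SE 0.11, adjusted p = 1.76e-06). The list shares 8 genes with the stromal mesenchyme markers and Sparc with the parietal endoderm markers, both of which summed higher in SCLCs as given above. Cdh2, Vim and Fn1 were among the 5 called lower against tc;Sf1ESCs.

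**Figure D5:**
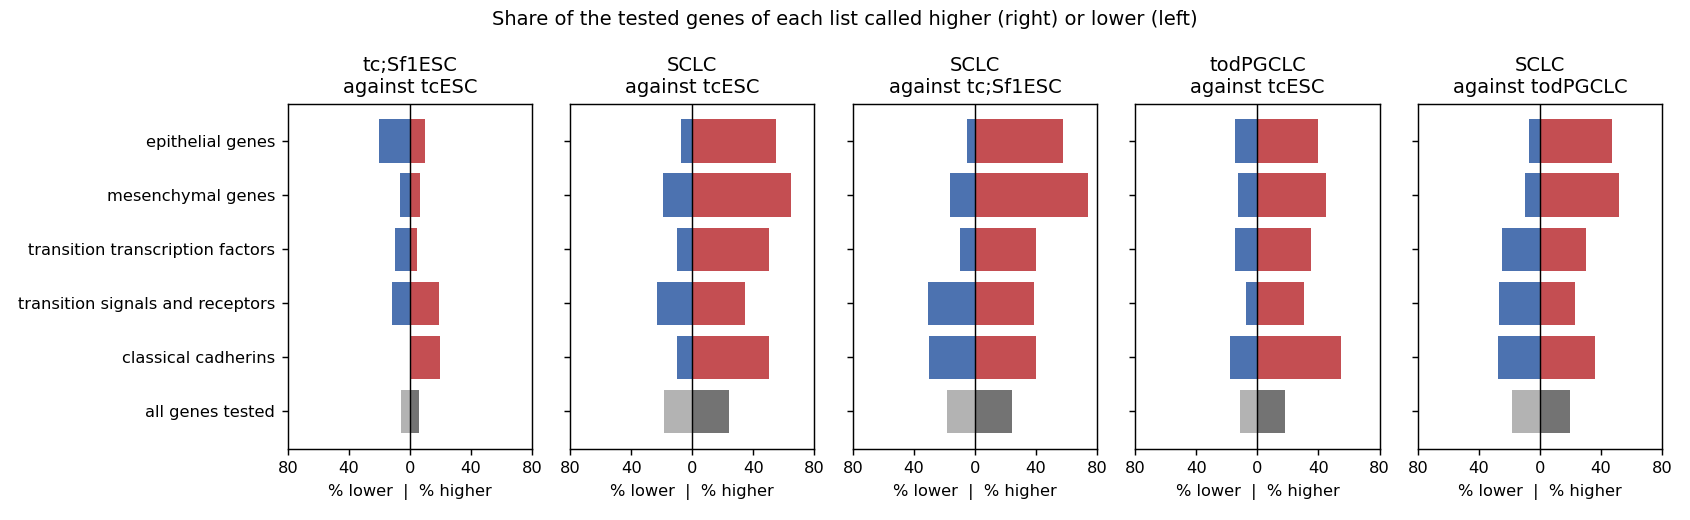
Share in percent of the tested genes of each list called higher (right) or lower (left) in the 5 comparisons, with all genes tested in grey. Against tc;Sf1ESCs, 23 of 40 epithelial and 23 of 31 mesenchymal genes were called higher in SCLCs, where 24.1% of all genes were.

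Of 21 transcription factors of the transition, which include the 5 members, 20 were tested. Between the ESC lines 1 was called higher and 2 lower in tc;Sf1ESCs (median -0.20), where 6.04% and 5.63% of all genes were. In SCLCs 10 were higher and 2 lower against tcESCs (median 0.85; 24.3% and 18.3% of all genes), and 8 higher and 2 lower against tc;Sf1ESCs (median 0.58; 24.1% and 18.1%). Foxf1 and Prrx1, called higher in both, passed the count filter only through the SCLC libraries. In todPGCLCs 7 were higher and 3 lower against tcESCs (median 0.49, with 18.1% and 11.2% of all genes). SCLCs had 6 higher and 5 lower against todPGCLCs (median -0.16, with 19.5% and 18.5%). Foxf1 and Prrx1 passed the filter only through SCLCs there too, which leaves 4 of 18 called higher, near the share of all genes. Lef1, a nuclear partner of beta-catenin in Wnt signalling, had 1.61 and 1.82 CPM in tcESCs, 35.2 and 33.8 CPM in tc;Sf1ESCs, 5.21 and 2.65 CPM in SCLCs, and 62.4 and 48.7 CPM in todPGCLCs. It rose by 4.33 in the Sf1 clone (SE 0.30, adjusted p = 0.000163) and fell by 3.09 from that clone to SCLCs (SE 0.27, adjusted p = 4.2e-05). Sox4, a factor with a role in epithelial plasticity, rose from 3.78 and 3.90 CPM in tc;Sf1ESCs to 30.2 and 26.2 CPM in SCLCs (2.92, SE 0.14, adjusted p = 2.13e-06). Among these factors, Snai1 had the largest increase in SCLCs against each of the other 3 groups among those with at least 5 CPM and no overlap between libraries.

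Of 27 ligands, receptors and mediators that can start the transition, 26 were tested. Between the ESC lines 5 were called higher and 3 lower in tc;Sf1ESCs, where 6.04% and 5.63% of all genes were. In SCLCs 9 were higher and 6 lower against tcESCs (24.3% and 18.3% of all genes), and 10 higher and 8 lower against tc;Sf1ESCs (24.1% and 18.1%). Tgfb3, called higher in both, passed the count filter only through the SCLC libraries. Against todPGCLCs 6 were higher and 7 lower in SCLCs (19.5% and 18.5% of all genes). Tgfb3 passed the filter only through SCLCs there too, which leaves 5 of 25 called higher. The todPGCLCs had 8 higher and 2 lower against tcESCs (18.1% and 11.2%). Several of these counts, such as the 6 called higher against todPGCLCs, are near the share of all genes. Tgfbr2, the type II receptor for TGF-beta, rose from 3.03 and 3.39 CPM in tcESCs to 84.2 and 66.7 CPM in SCLCs (4.61, SE 0.18, adjusted p = 9.79e-07). Bmp2, a ligand of the BMP family, rose from 0.905 and 1.01 CPM to 31.6 and 34.6 CPM in the same comparison (5.16, SE 0.21, adjusted p = 1.26e-06). Jag1, a Notch ligand, fell from 97.1 and 96.2 CPM in tc;Sf1ESCs to 5.28 and 6.46 CPM in SCLCs (-3.99, SE 0.11, adjusted p = 3.25e-07). Axl, a receptor tyrosine kinase of mesenchymal cells, was higher in the Sf1 clone, at 8.99 and 9.29 CPM against 1.26 and 1.499 CPM in tcESCs (2.73, SE 0.24, adjusted p = 0.000403).

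Among 18 classical cadherins, 10 had enough counts to be tested in the 6 libraries of the ESC lines and SCLCs, and 11 over all 8 libraries. In SCLCs 5 were called higher and 1 lower against tcESCs (24.3% and 18.3% of all genes), and 4 higher and 3 lower against tc;Sf1ESCs (24.1% and 18.1%). SCLCs had 4 higher and 3 lower against todPGCLCs (19.5% and 18.5% of all genes), todPGCLCs 6 higher and 2 lower against tcESCs (18.1% and 11.2%), and tc;Sf1ESCs 2 higher and 0 lower against tcESCs (6.04% and 5.63%). With 10 or 11 genes tested, these counts are small. Cdh5, Cdh11 and Cdh15 passed the count filter only through the SCLC libraries in the fit with the ESC lines and so had to differ, which leaves 2 called higher against tcESCs and 1 against tc;Sf1ESCs, and Cdh20 passed only through the todPGCLC libraries. Cdh3, the gene for P-cadherin of epithelia, had 10.1 and 9.91 CPM in tcESCs, 40.1 and 39.6 CPM in tc;Sf1ESCs, 55.9 and 84.7 CPM in SCLCs, and 63.3 and 71.9 CPM in todPGCLCs. It rose by 2.01 in the Sf1 clone (SE 0.20, adjusted p = 0.000543), as did Cdh4, the gene for R-cadherin (1.26, SE 0.14, adjusted p = 0.000899). Cdh6, a cadherin of embryonic kidney epithelia, had 46.8 and 59.6 CPM in SCLCs and 0.463 to 1.31 CPM elsewhere. Cdh5, the gene for the cadherin of endothelium, had 29.6 and 70.2 CPM in SCLCs, at most 3 counts in each ESC library, and 1.31 and 0.678 CPM in todPGCLCs. Of the 5-gene endothelial list, which holds Cdh5, 4 were tested between SCLCs and tc;Sf1ESCs. Cdh5 was called higher and Tek lower, near the shares of 24.1% and 18.1% of all genes. Pecam1 (-0.97, adjusted p = 0.0755) and Kdr (0.49, adjusted p = 0.114) were not called, and Emcn, not tested, had 8 and 2 counts in SCLCs and 0 in both tc;Sf1ESC libraries. The SCLCs thus held less of Cdh1 and Cdh2 and more of Cdh5 and Cdh6 than tc;Sf1ESCs.

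The genes whose pattern over the 8 libraries was closest to that of Cdh1, out of 9731 candidates that averaged 10 CPM or more, were Tacc2, Mob3c, Zbtb7a, Cpped1 and E2f4. Their root mean square differences from Cdh1 in centred log2 CPM were 0.14 to 0.15. Closest to Cdh2 were Syn1, Fam222a, Aldh1a2, Tek and Zic5, at 0.32 to 0.38. Snai2, Zeb2 and Twist1 stayed below 10 CPM in every library and so were not candidates. None of the other members was among the 5 genes closest to Cdh1 or among the 5 closest to Cdh2.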

How the data were processed

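Total RNA was extracted from cultured or sorted cells, and strand-specific poly-A libraries were sequenced as paired 50 bp reads. Per the labels and methods, the authors trimmed reads with Trim Galore, aligned them to GRCm38 with STAR 2.4.0 and counted them on Ensembl genes with HTSeq, and they deposited raw counts without normalization. The counting's strand setting is not given in the sources used here. Ambiguous and multiply aligned reads, among the 35.6% to 41.6% of reads set aside, were left out, which lowers genes with near-identical copies. Of 46078 IDs, 45143 were named with GENCODE M21. An antisense gene on Fn1 exons had at most 33 counts.

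Tests were run with edgeR 4.0.16 on R 4.3.3 (with limma 3.58.1), after TMM normalization, genes with a mean count above 10 and Benjamini-Hochberg adjustment over all genes tested. The ESC and SCLC comparisons used 6 libraries and those of todPGCLCs 8. Intervals are 95%. DESeq2 1.42.0 and other settings were alternatives. The procedure was tested on simulated data. Limits in CPM cover counting error only.

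The members, the pathway lists and the marker lists were chosen with earlier results of these data known. All members were named in every comparison, and from each pathway list up to 2 called genes per direction with the largest change, a mean of at least 5 CPM and no overlap between libraries, of which some are shown. Marker genes were named beside results.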

Additional observations from a re-analysis of the deposited data

How the results depend on the processing

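The alternatives were RLE size factors or library totals in place of TMM, filterByExpr or every gene with a count, DESeq2, a fit of the 4 libraries compared or of all 8, a test against a 2-fold change (glmTreat), a replicate block, and the omission of every library in turn. No log2 fold change of a called member turned its direction. With glmTreat, members called higher between tc;Sf1ESCs and tcESCs fell from 2 to 1 (Epcam, adjusted p = 0.0649) and all genes called to 594, members called lower between todPGCLCs and tcESCs fell from 2 to 1 (Snai1, adjusted p = 0.099) and all genes called to 3078, and Cdh1 (SCLCs against tc;Sf1ESCs, 0.346) and Zeb1 (SCLCs against todPGCLCs, 0.122) lost their calls. Without 1 library, 1119 (tcESC replicate 2) to 1240 (tc;Sf1ESC replicate 2) genes were called between the ESC lines, where a group then held a lone library assumed to vary like the others. Cdh1, near the fold limit between SCLCs and tcESCs, was called in 5 of 9 settings, including the replicate block (-1.002). With the replicate block, members called lower in that comparison were 4 in place of 3, and no other member's call changed. Same-numbered libraries did not deviate together (correlations of -0.02 to 0.06), so the numbers do not pair them. With the longest transcript as gene length, the log2 ratio of Cdh1 to Cdh2 was 6.08 and 6.00 in tcESCs, 5.92 and 5.95 in tc;Sf1ESCs, 7.67 and 8.33 in SCLCs and 4.60 and 3.57 in todPGCLCs, a shift by the lengths alone. Depth limits Zeb2 in the ESC lines (9 to 20 counts) and Snai2 (26 to 41 counts).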

Other observations

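Marker lists of other cell types gave further values beside these genes, each with its calls. Of 7 neural markers, all tested, 2 were called higher and 3 lower in SCLCs against tcESCs (24.3% and 18.3% of all genes), 1 higher and 5 lower against tc;Sf1ESCs (24.1% and 18.1%), 0 higher and 6 lower against todPGCLCs (19.5% and 18.5%), and 3 higher and 1 lower in todPGCLCs against tcESCs (18.1% and 11.2%). The 2 higher against tcESCs are near the share of all genes. Pax6, 1 of them and the 1 called higher against tc;Sf1ESCs, passed the count filter in both only through the SCLC libraries. Their summed level was 237.3 and 256.5 CPM in tcESCs, 395.5 and 402.8 CPM in tc;Sf1ESCs, 35.3 and 28.6 CPM in SCLCs, and 195.4 and 185.2 CPM in todPGCLCs, and Stmn2 and Tubb3 made most of it in both ESC lines and in todPGCLCs. Pax6, a neural and eye factor, rose from 0.394 and 0.358 CPM in tcESCs to 7.63 and 6.02 CPM in todPGCLCs and to 3.77 and 1.65 CPM in SCLCs, while Stmn2, a neuronal microtubule regulator, fell from 136.9 and 155.3 CPM to 2.90 and 1.41 CPM in SCLCs. Of 7 trophectoderm markers 6 were tested, and 4 were called higher and 1 lower in SCLCs against tcESCs, 3 higher and 0 lower against tc;Sf1ESCs, and 4 higher and 1 lower against todPGCLCs, with the same shares of all genes as above, and 1 called higher against both ESC lines, Hand1, passed the filter only through SCLCs. Gata3, a trophoblast factor, rose from 1.10 and 1.43 CPM in tcESCs to 7.25 and 17.4 CPM in SCLCs, and the simple keratin gene Krt7 from 4.13 and 5.15 CPM to 19.6 and 40.7 CPM. Eomes, a core trophoblast factor that mesendoderm also expresses, fell from 30.9 and 29.5 CPM to 6.08 and 8.63 CPM (-1.97, adjusted p = 4.26e-05 by edgeR's quasi-likelihood test). The list's sum ran from 55.4 to 147.2 CPM over the 8 libraries, and Tead4 gave 106.7 and 102.9 CPM of it in tcESCs and 53.7 and 65.2 CPM in SCLCs. Endothelial markers (5 genes, 4 tested) summed to 99.9 to 147.3 CPM in the ESC lines and SCLCs and to 314.2 and 263.8 CPM in todPGCLCs, where Pecam1 alone gave 278.8 and 222.8 CPM. Against tcESCs, Pecam1 and Cdh5 were called higher in todPGCLCs and Kdr lower (18.1% and 11.2% of all genes). In SCLCs Cdh5 was called higher than in tcESCs and Pecam1 and Tek lower (24.3% and 18.3% of all genes). Pluripotency markers (10 genes) summed to 5091 and 4704 CPM in todPGCLCs and to 5275 to 6270 CPM in the ESC lines. Of the 10, 4 were called lower in todPGCLCs than in tcESCs and 0 higher, where 11.2% and 18.1% of all genes were. Nanog, a core factor of pluripotency, had 648.0 and 645.0 CPM in todPGCLCs against 69.4 and 21.3 CPM in SCLCs.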
